A study of Arabidopsis thaliana with 12 samples.

Results

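Transcripts of 10 Arabidopsis thaliana loci of jasmonate synthesis and the lipoxygenase family were followed in ageing leaves of gvs1-1 and Col. The members are a list of genes of the route, taken by locus name from the 21266 loci of the authors' table, with no threshold on their values. They are the lipoxygenases LOX1 (AT1G55020), LOX2 (AT3G45140), LOX3 (AT1G17420), LOX4 (AT1G72520) and LOX6 (AT1G67560), the allene oxide synthase AOS (AT5G42650), the allene oxide cyclases AOC1 (AT3G25760) and AOC2 (AT3G25770), the OPDA reductase OPR3 (AT2G06050) and the conjugating enzyme JAR1 (AT2G46370). All 10 were among the 19152 genes tested, and all 10 were well above background on each of the 12 arrays. The groups were the third and the fourth leaves of gvs1-1 at DAE28, gvs1-1 at DAE14, Col at DAE28 and Col at DAE14, with 3 biological samples in each and 1 one-colour array per sample. Col is the ecotype that served as the reference. The labels list soil growth of 23 and 37 days under 16 h light and 8 h dark, with harvest 5 h into the light. What DAE stands for is not spelled out, and neither the gvs1 locus nor the nature of the gvs1-1 allele is named in the sources used here. The transcript of that gene was therefore not checked. Per the series title, the study asked how transcripts differ between Col and gvs1 while leaves senesce.

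Jasmonates are hormones made from the fatty acid alpha-linolenic acid. In the plastid, lipoxygenases add oxygen to the fatty acid, allene oxide synthase turns the product into an unstable epoxide, and allene oxide cyclase closes the ring to give OPDA. In the peroxisome OPR3 reduces OPDA, beta-oxidation shortens the side chain, and in the cytosol JAR1 joins the resulting jasmonic acid to isoleucine. The conjugate is the form that the receptor COI1 perceives, and applied jasmonate is known to speed yellowing of leaves. LOX2, LOX3, LOX4 and LOX6 are plastid enzymes that feed this route, while LOX1 oxygenates another carbon of the fatty acid and does not lead to jasmonate.

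A level is here the log2 processed signal minus the 75th percentile of its array, so that 0 is the level of that percentile. Such levels were compared between groups for 1 gene at a time and not between genes, since probes differ in brightness. Age differences are DAE28 minus DAE14, and genotype differences are gvs1-1 minus Col. Differences were tested with limma in 1 fit over the 12 arrays, with Benjamini-Hochberg adjustment over 19152 genes and a threshold of 0.05. The 75th percentile of processed signal was 1172 to 1309 in gvs1-1 at DAE28, 793 to 895 in gvs1-1 at DAE14, 1443 to 1577 in Col at DAE28 and 704 to 894 in Col at DAE14, and 63.8% to 72.5% of spots per array were well above background. The brightest probes spanned a wider range in some groups than in others: the 99.9th percentile lay 6.75 to 7.002 log2 units above the 75th in gvs1-1 at DAE28, 7.57 to 7.74 in gvs1-1 at DAE14, 6.48 to 7.03 in Col at DAE28 and 8.27 to 8.51 in Col at DAE14. The arrays sat on 3 slides and were scanned on 2 days, and no slide held both genotypes at the same stage. A difference between the genotypes at a given stage is therefore also a difference between slides. Slide 1 held the 3 Col DAE14 arrays with 1 Col DAE28 array, slide 2 held 2 Col DAE28 and 2 gvs1-1 DAE14 arrays, and slide 3 held 1 gvs1-1 DAE14 array with the 3 gvs1-1 DAE28 arrays. Slides 1 and 3 were scanned on one day and slide 2 on the other. The lone arrays are assumed to vary like the others in the within-slide values.

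With age, 4 of the 10 genes changed in gvs1-1 and 7 changed in Col. In gvs1-1, AOC1 rose and LOX1, LOX2 and LOX6 fell. In Col, LOX3, LOX4, AOC1 and OPR3 rose and LOX2, LOX6 and AOS fell. The background was high: 61.4% of all genes changed with age in gvs1-1 (31.4% higher, 30.0% lower) and 72.0% in Col (35.7% higher, 36.3% lower). The median age difference of the 10 genes was -0.27 in gvs1-1 and 0.21 in Col, beside 0.06 and 0.01 over all genes. The plot of signal by array shows the 4 groups of each gene.

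**Figure D1:**
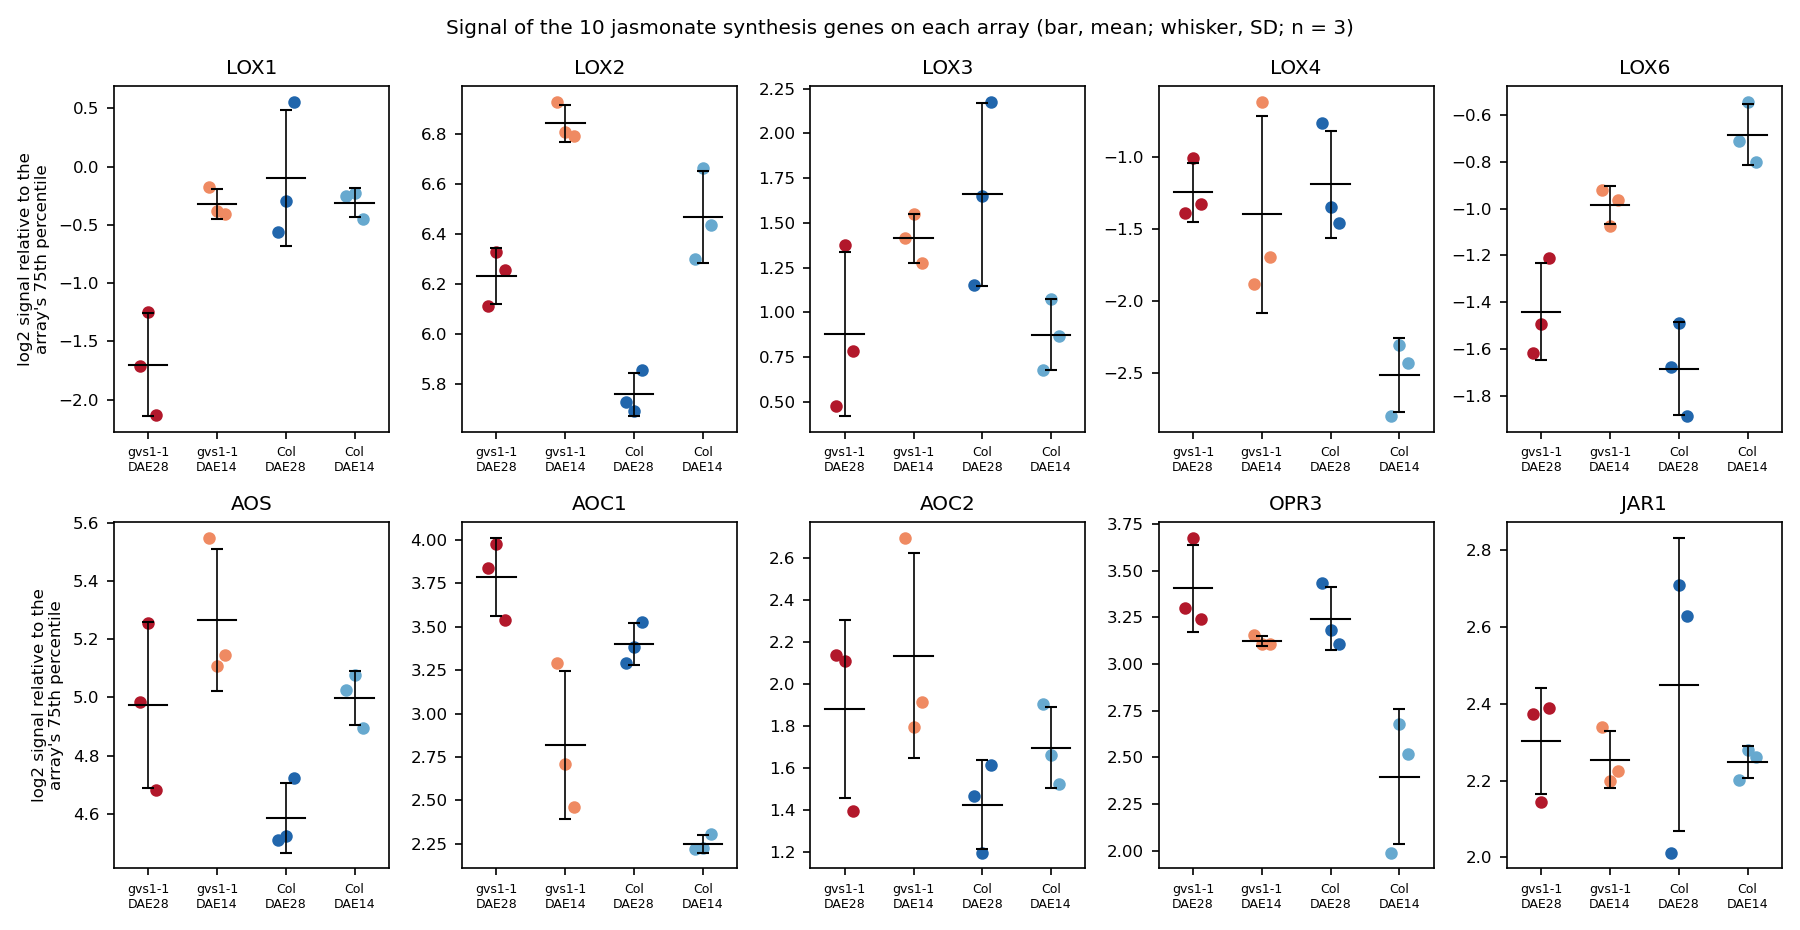
Log2 signal relative to the 75th percentile of each array (y axis) for the 10 genes, 1 panel per gene, in the 4 groups on the x axis; points are arrays, bars are means and whiskers are SD (n = 3). LOX1 lies between -2.13 and -1.25 in gvs1-1 at DAE28, below its 9 other arrays, and LOX4 lies between -2.80 and -2.31 in Col at DAE14, below its 9 others.

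LOX2, which supplies much of the jasmonate made after wounding, had levels of 6.11, 6.33 and 6.26 in gvs1-1 at DAE28, against 6.93, 6.81 and 6.79 in gvs1-1 at DAE14. In Col the levels were 5.73, 5.69 and 5.86 at DAE28, against 6.300, 6.66 and 6.44 at DAE14. All DAE28 arrays were below all DAE14 arrays of the same genotype. LOX2 fell with age by 0.61 ± 0.11 in gvs1-1 (SE, limma adjusted p = 0.00088) and by 0.71 ± 0.11 in Col (adjusted p = 0.00021). Within a slide, the differences were -0.56 in gvs1-1 (adjusted p = 0.056) and -0.74 in Col (adjusted p = 0.029). The means kept an order in which gvs1-1 at DAE14 was highest (6.84 ± 0.08, SD, n = 3), followed by Col at DAE14 (6.47 ± 0.18), gvs1-1 at DAE28 (6.23 ± 0.11) and Col at DAE28 (5.76 ± 0.09). The arrays of Col at DAE14 and gvs1-1 at DAE28 overlap in that order.

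The direction of LOX2 depended on the scaling, and its 4 probes did not respond alike to it. The probe used here was the brightest, and before scaling its processed signal was 89615 to 96472 in gvs1-1 at DAE28, 88735 to 108970 in gvs1-1 at DAE14, 74551 to 91295 in Col at DAE28 and 70413 to 72111 in Col at DAE14. The files mark 0 spots as saturated. Whether signals this bright are compressed, which would touch the printed LOX2 differences, was not tested. Between 115 and 168 probes were brighter than it in gvs1-1 at DAE28, 140 to 196 in gvs1-1 at DAE14, 151 to 207 in Col at DAE28 and 298 to 348 in Col at DAE14. After quantile normalization its age difference took the opposite direction, with 0.15 in gvs1-1 (limma adjusted p = 0.33) and 0.65 in Col (adjusted p = 0.0010). The difference in Col thus passed as a fall or as a rise, depending on the scaling. The authors' log2 values for the locus gave -0.17 in gvs1-1 (adjusted p = 0.32) and -0.62 in Col (adjusted p = 0.0021). The 3 dimmer LOX2 probes were lower at DAE28 under both scalings. Relative to the 75th percentile they differed by -0.34 to -0.38 in gvs1-1 and by -0.99 to -1.12 in Col, and after quantile normalization by -0.21 to -0.39 in gvs1-1 and -0.95 to -1.11 in Col. For these 3 probes the age difference in gvs1-1 minus that in Col was 0.61 to 0.78, with SEs of 0.24 to 0.29, against 0.10 ± 0.16 for the brightest.

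LOX3 and LOX4 are plastid lipoxygenases with overlapping roles in male fertility and in the supply of jasmonate to leaves. LOX3 had levels of 0.47, 1.38 and 0.78 in gvs1-1 at DAE28, against 1.42, 1.55 and 1.27 in gvs1-1 at DAE14. In Col it had 1.15, 1.65 and 2.18 at DAE28, against 0.68, 1.08 and 0.87 at DAE14. The 2 stages overlapped in gvs1-1 and did not in Col. LOX3 rose with age in Col by 0.78 ± 0.27 (limma adjusted p = 0.025), while the difference in gvs1-1 was -0.53 ± 0.27 (adjusted p = 0.11; -0.78, which passed, without gvs1-1 DAE28 replicate 2). The rise in Col did not pass within slide 1 (0.28, adjusted p = 0.28), nor without Col DAE28 replicate 3 (0.53), Col DAE28 replicate 2 (0.79), Col DAE14 replicate 1 (0.69) or Col DAE14 replicate 3 (0.78).

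The 4 LOX3 probes gave different answers. Their processed signals ran from 1431 to 7130 for the brightest, then 190 to 789, 256 to 551 and 40.9 to 135 for the dimmest. From the brightest to the dimmest, their age differences in Col were 0.78 ± 0.27, 0.46 ± 0.26, -0.27 ± 0.17 and -0.53 ± 0.40. In gvs1-1 the same probes differed by -0.53, -0.43, -0.08 and 0.16. With the mean of the 4 probes the age difference in Col was 0.11, and in the authors' log2 values it was 0.25; neither passed. The brighter pair was higher at DAE28 in Col and lower in gvs1-1, and the dimmer pair did not show this.

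**Figure D2:**
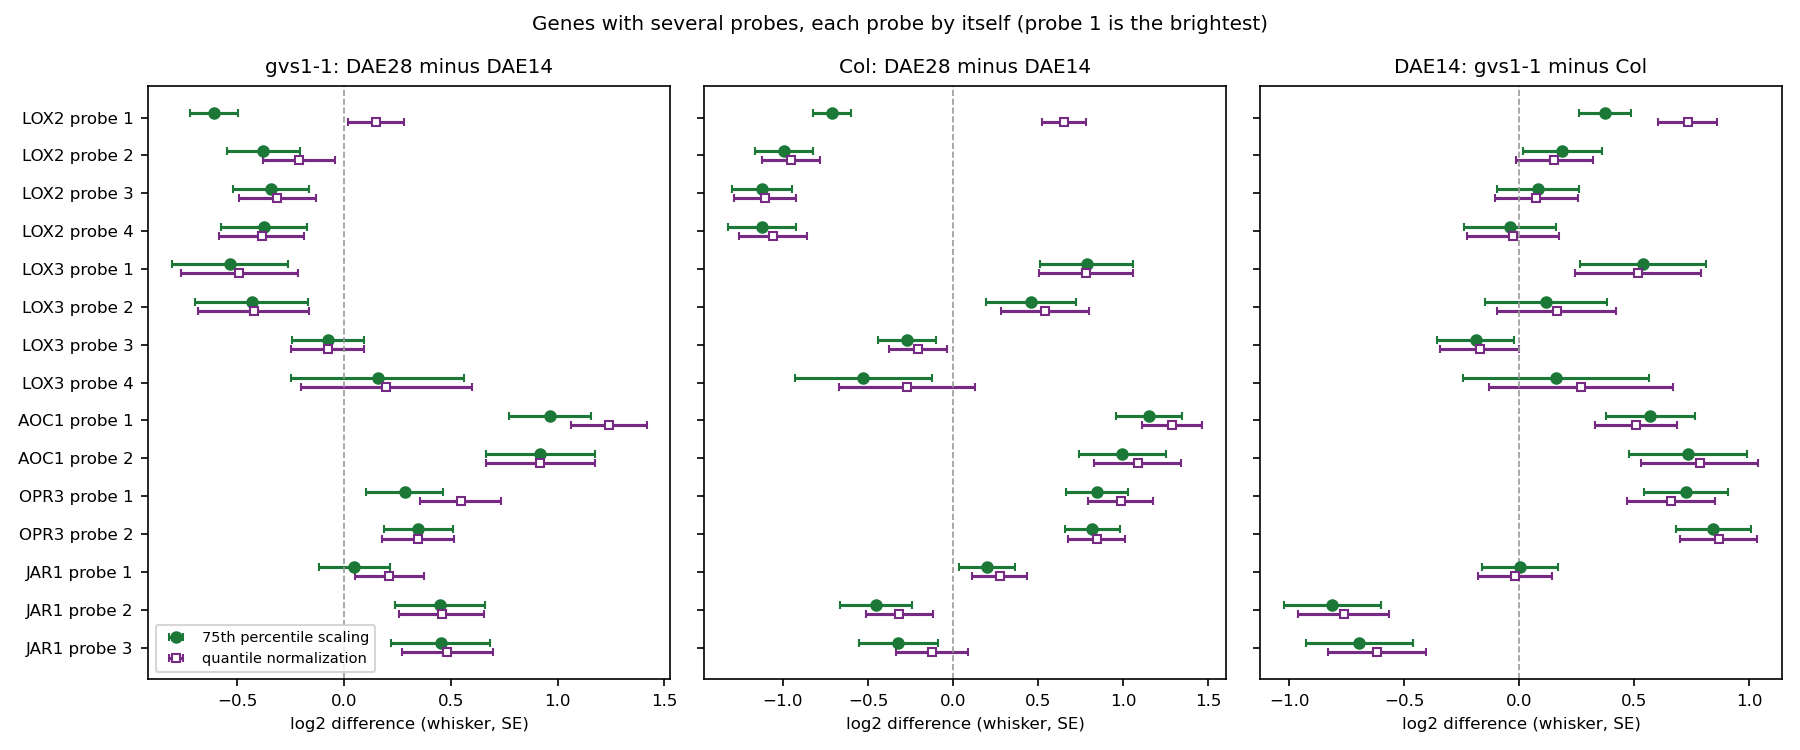
Log2 differences (x axis) of each probe of LOX2, LOX3, AOC1, OPR3 and JAR1, with SE whiskers; probe 1 is the brightest of its gene. The 2 AOC1 probes lie close together, and the 4 LOX3 probes lie on both sides of 0 for age in Col.

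LOX4 had levels of -1.39, -1.01 and -1.33 in gvs1-1 at DAE28, against -1.88, -0.61 and -1.69 in gvs1-1 at DAE14. In Col the levels were -0.76, -1.35 and -1.46 at DAE28, against -2.80, -2.31 and -2.43 at DAE14. Col at DAE14 lay below every array of the other groups, and those groups overlapped one another. LOX4 rose with age in Col by 1.32 ± 0.31 (limma adjusted p = 0.0033), which was 1.75 within slide 1 (adjusted p = 0.0054). In gvs1-1 the difference was 0.15 ± 0.31 (adjusted p = 0.69), with a 95% interval of -0.55 to 0.85.

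LOX6 takes part in the early jasmonate made after wounding and is known from xylem contact cells. Its levels were -1.62, -1.49 and -1.21 in gvs1-1 at DAE28, against -0.92, -1.08 and -0.96 in gvs1-1 at DAE14. They were -1.67, -1.49 and -1.88 in Col at DAE28, against -0.71, -0.54 and -0.80 in Col at DAE14. The stages did not overlap in either genotype. Before scaling the processed signal was 427 to 507 in gvs1-1 at DAE28, 376 to 473 in gvs1-1 at DAE14, 427 to 514 in Col at DAE28 and 478 to 545 in Col at DAE14. Relative to the 75th percentile, which was itself higher at DAE28, LOX6 fell with age by 0.45 ± 0.14 in gvs1-1 (limma adjusted p = 0.015) and by 1.00 ± 0.14 in Col (adjusted p = 7.7e-05). Within a slide these were -0.48 in gvs1-1 (adjusted p = 0.15) and -0.99 in Col (adjusted p = 0.0078), and the fall in gvs1-1 did not pass without gvs1-1 DAE28 replicate 1 (-0.36). The summed scaled signal of the vascular markers was also lower at DAE28. It was 26.6 to 30.5 in gvs1-1 at DAE28, against 52.0 to 55.2 in gvs1-1 at DAE14. In Col it was 26.1 to 32.0 at DAE28, against 43.3 to 53.6 at DAE14. Of the 8 vascular markers 7 fell in gvs1-1 and 6 in Col, with median age differences of -1.49 and -1.60. Their median interaction was -0.023, against 0.54 for LOX6. Other cell types fell too: all 6 mesophyll markers in both genotypes, and 4 of 5 epidermis markers in gvs1-1 and 5 in Col. Of 6 guard cell markers 3 fell in gvs1-1, while 2 fell and 1 rose in Col. The part of these markers in the LOX6 result was not tested. In such bulk leaf samples, fewer cells of a type and less RNA per cell cannot be told apart.

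LOX1 stood apart in gvs1-1 at DAE28, with levels of -1.71, -1.25 and -2.13, against -0.17, -0.38 and -0.41 in gvs1-1 at DAE14. Col had -0.56, -0.29 and 0.56 at DAE28, against -0.26, -0.22 and -0.45 at DAE14. The gvs1-1 DAE28 arrays were below all 9 others, and the other groups overlapped. LOX1 fell with age in gvs1-1 by 1.38 ± 0.28 (limma adjusted p = 0.0018), and the difference in Col was 0.21 ± 0.28 (adjusted p = 0.51). Within slide 3 the difference in gvs1-1 was -1.29 (adjusted p = 0.073), and within slide 1 that in Col was -0.25 (adjusted p = 0.21).

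AOS, the single gene for allene oxide synthase, had levels of 4.98, 5.26 and 4.68 in gvs1-1 at DAE28, against 5.55, 5.11 and 5.15 in gvs1-1 at DAE14. In Col it had 4.51, 4.52 and 4.72 at DAE28, against 5.03, 5.08 and 4.90 at DAE14. The stages overlapped in gvs1-1 and did not in Col. Before scaling the AOS processed signal in Col was higher at DAE28, at 33018 to 41673 against 23732 to 29125 at DAE14. In gvs1-1 it was 30104 to 45827 at DAE28, against 27330.5 to 41839 at DAE14. Relative to the 75th percentile, which was itself higher at DAE28, AOS fell with age in Col by 0.41 ± 0.16 (limma adjusted p = 0.041). The difference in gvs1-1 was -0.29 ± 0.16 (adjusted p = 0.14). Without gvs1-1 DAE28 replicate 2 it was -0.43, which passed. Under quantile normalization the signs turned, with 0.29 in gvs1-1 and 0.18 in Col, and the authors' log2 values gave 0.26 and 0.19, none of which passed. The fall in Col was -0.49 within slide 1 (adjusted p = 0.036), but it did not pass with slide as a block (-0.49, adjusted p = 0.11), within scan day 1 (adjusted p = 0.10), with normexp (adjusted p = 0.11) or with median centring (-0.24, adjusted p = 0.20). It also did not pass in 6 of the 12 fits that left out 1 array. Those arrays were Col DAE14 replicates 1, 2 and 3, Col DAE28 replicates 1 and 2, and gvs1-1 DAE28 replicate 1, with values of -0.46 to -0.37.

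AOC1 rose with age in both genotypes, and the rise passed in all 25 alternative settings run for each genotype, the fits without 1 array included. Its levels were 3.84, 3.98 and 3.54 in gvs1-1 at DAE28, against 3.29, 2.71 and 2.46 in gvs1-1 at DAE14. They were 3.29, 3.38 and 3.53 in Col at DAE28, against 2.22, 2.22 and 2.31 in Col at DAE14. The stages did not overlap in either genotype. The rise was 0.96 ± 0.19 in gvs1-1 (limma adjusted p = 0.0016) and 1.15 ± 0.19 in Col (adjusted p = 0.00035). The second probe of the gene gave 0.92 in gvs1-1 and 1.00 in Col, and within a slide the rises were 1.32 in gvs1-1 (adjusted p = 0.023) and 1.04 in Col (adjusted p = 0.0035).

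AOC2, the next gene on the chromosome to AOC1, did not pass for age, with -0.25 ± 0.26 in gvs1-1 (limma adjusted p = 0.43) and -0.27 ± 0.26 in Col (adjusted p = 0.37). Its levels ran from 1.39 to 2.14 in gvs1-1 at DAE28, 1.80 to 2.69 in gvs1-1 at DAE14, 1.199 to 1.61 in Col at DAE28 and 1.53 to 1.91 in Col at DAE14. The cyclase genes are near-identical copies, so their probes can take signal from each other's transcripts, and values of a single copy are uncertain.

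OPR3, whose product reduces OPDA in the peroxisome, had levels of 3.30, 3.67 and 3.24 in gvs1-1 at DAE28, against 3.15, 3.11 and 3.11 in gvs1-1 at DAE14. In Col the levels were 3.43, 3.18 and 3.11 at DAE28, against 1.99, 2.68 and 2.52 at DAE14. Col at DAE14 lay below all arrays of the other groups. OPR3 rose with age in Col by 0.85 ± 0.18 (limma adjusted p = 0.0018; 1.04 within slide 1, adjusted p = 0.047). In gvs1-1 the difference was 0.28 ± 0.18 (adjusted p = 0.20), which passed under quantile normalization (0.55) and in the authors' log2 values (0.44). The second OPR3 probe differed by 0.35 in gvs1-1 and 0.82 in Col.

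JAR1, which makes the active conjugate, did not pass in any comparison of the 5. Its levels ran from 2.14 to 2.39 in gvs1-1 at DAE28, 2.1996 to 2.34 in gvs1-1 at DAE14, 2.01 to 2.71 in Col at DAE28 and 2.202 to 2.28 in Col at DAE14. The age difference was 0.05 in gvs1-1 (95% interval -0.32 to 0.41) and 0.20 in Col (-0.16 to 0.57). Without Col DAE28 replicate 1, JAR1 passed for age in Col (0.42) and at DAE28 between the genotypes (-0.37). The 2 dimmer JAR1 probes had processed signals of 78.4 to 279 and 38.4 to 151, against 3420.5 to 9759 for the brightest. Their age differences were both 0.45 in gvs1-1, and -0.45 and -0.32 in Col. Between the genotypes at DAE14 these dimmer probes differed by -0.81 ± 0.21 and -0.69 ± 0.23, against 0.0058 ± 0.16 for the brightest, and their interactions were 0.90 ± 0.30 and 0.77 ± 0.33.

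Between the genotypes at DAE28, 2 of the 10 genes passed: LOX1 was lower and LOX2 higher in gvs1-1. Of all genes 33.1% passed in this comparison, 17.9% higher and 15.1% lower. LOX1 averaged -1.70 ± 0.44 in gvs1-1 and -0.10 ± 0.58 in Col (SD, n = 3 each), a difference of -1.60 ± 0.28 (SE, limma adjusted p = 0.0025). LOX2 averaged 6.23 ± 0.11 in gvs1-1 and 5.76 ± 0.09 in Col, a difference of 0.47 ± 0.11 (adjusted p = 0.0093), and its 3 dimmer probes gave 0.80, 0.86 and 0.71. Neither passed with slide as a block, where LOX1 differed by -1.70 (adjusted p = 0.0687) and LOX2 by 0.53 (adjusted p = 0.15). On the scan day that held both groups, with 1 Col array at DAE28, the values were -1.14 for LOX1 (adjusted p = 0.055) and 0.51 for LOX2 (adjusted p = 0.090). LOX2 also did not pass under quantile normalization (0.23).

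The other 8 genes did not pass at DAE28. LOX3 was at -0.78 ± 0.27 (limma adjusted p = 0.051), but its 4 probes from brightest to dimmest gave -0.78, -0.77, 0.0055 and 0.84. LOX3 passed under median centring (-0.86) and without Col DAE28 replicate 1 or gvs1-1 DAE28 replicate 2 (-1.03 in each case). AOS was at 0.39 ± 0.16 (adjusted p = 0.092), AOC1 at 0.38 ± 0.19 (adjusted p = 0.15) and AOC2 at 0.46 ± 0.26 (adjusted p = 0.21). AOS passed without gvs1-1 DAE28 replicate 3 (0.53) and AOC1 without gvs1-1 DAE14 replicate 1 (0.38). LOX4 and OPR3, which had risen with age in Col, were at -0.05 (95% interval -0.75 to 0.65) and 0.16 (-0.24 to 0.57). LOX6 was at 0.24 ± 0.14 (adjusted p = 0.19) and JAR1 at -0.15 ± 0.16 (adjusted p = 0.53).

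At DAE14, 0 of the 10 genes passed between gvs1-1 and Col by limma, in a comparison in which 0.313% of all genes passed. At an unadjusted p under 0.05 there were 4 of the 10, LOX2, LOX4, AOC1 and OPR3, all higher in gvs1-1, beside 16.7% of all genes (6.61% higher and 10.1% lower). OPR3 averaged 3.12 ± 0.03 in gvs1-1 and 2.40 ± 0.36 in Col (SD, n = 3 each), a difference of 0.73 ± 0.18 (SE, limma adjusted p = 0.13), and its second probe gave 0.85. LOX4 averaged -1.40 ± 0.69 in gvs1-1 and -2.51 ± 0.26 in Col, a difference of 1.12 ± 0.31 (adjusted p = 0.15). For both genes the arrays of the genotypes did not overlap. AOC1 differed by 0.57 ± 0.19 (adjusted p = 0.20) and LOX2 by 0.37 ± 0.11 (adjusted p = 0.17), and the 3 dimmer LOX2 probes gave 0.19, 0.08 and -0.04. Single arrays bore on these values, since LOX4 was at 0.73 without gvs1-1 DAE14 replicate 2 and AOC1 at 0.34 without gvs1-1 DAE14 replicate 1. Within scan day 1 AOC1 was at 0.21. The other genes were LOX3 at 0.54 (adjusted p = 0.36), AOC2 at 0.44 (adjusted p = 0.44), AOS at 0.27 (adjusted p = 0.44), LOX6 at -0.30 (adjusted p = 0.30), LOX1 at -0.012 (adjusted p = 0.99) and JAR1 at 0.0058 (adjusted p = 0.99). Without gvs1-1 DAE14 replicate 1, AOC2 was at 0.16 and AOS at 0.13. The median of the 10 genes was 0.41, against 0.01 over all genes.

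Whether the age change itself differed between the genotypes was tested as the interaction, in which 18.7% of all genes passed (9.91% higher, 8.74% lower). LOX1 and LOX3 passed, both with a lower age difference in gvs1-1. For LOX1 the age difference was -1.38 in gvs1-1 and 0.21 in Col, and these differed by -1.59 ± 0.40 (limma adjusted p = 0.023). For LOX3 it was -0.53 in gvs1-1 and 0.78 in Col, and these differed by -1.32 ± 0.39 (adjusted p = 0.041). With slide as a block the interaction was -1.04 for LOX1 (adjusted p = 0.29) and -0.67 for LOX3 (adjusted p = 0.46), and neither passed within scan day 1. Other genes moved in the same comparisons: all 6 mesophyll markers and 3 of 5 epidermis markers were higher in the interaction, and SAG12, NAP and NYE1, which rise in senescing leaves, were lower. At DAE28 4 of the 6 mesophyll markers and 3 of the 5 epidermis markers were higher in gvs1-1, beside 17.9% of all genes. The 3 senescence genes were lower, with a median of -1.95, beside 15.1% of all genes. The part of these markers and senescence genes in the LOX1 and LOX3 results was not tested. LOX1 also did not pass without Col DAE14 replicate 1 (-1.62), Col DAE14 replicate 3 (-1.52) or gvs1-1 DAE28 replicate 3 (-1.37). For LOX3 the mean of its probes gave -0.33, and 10 of the 12 fits without 1 array did not pass. It passed in the fits without Col DAE28 replicate 1 and without gvs1-1 DAE28 replicate 2.

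LOX4, which passed for age in Col and not in gvs1-1, had an interaction of -1.17 ± 0.45 (limma adjusted p = 0.091), and OPR3 had -0.56 ± 0.26 (adjusted p = 0.15). For these genes a difference in the age change was therefore not shown. LOX6 had 0.54 ± 0.19 (adjusted p = 0.073). LOX2, AOS, AOC1, AOC2 and JAR1 lay between -0.19 and 0.12, with adjusted p of 0.66 or more. The mean of the LOX2 probes gave 0.56 (adjusted p = 0.093).

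The rest of the synthesis route was followed through 16 measured genes of a list of 18. In gvs1-1 7 rose and 4 fell with age, in Col 7 rose and 4 fell, beside the 61.4% and 72.0% of all genes that changed, and the median differences were 0.36 and 0.60. The genes that rose included enzymes of peroxisomal beta-oxidation: KAT2, a thiolase, by 0.91 ± 0.14 in gvs1-1 and 1.96 ± 0.14 in Col, ACX1, an acyl-CoA oxidase, by 0.86 in gvs1-1 and 1.54 in Col, and MFP2 by 0.81 in gvs1-1 and 1.56 in Col (limma adjusted p of 0.00036 or less for KAT2 and ACX1 in gvs1-1 and for KAT2 and MFP2 in Col). OPR2, a relative of OPR3 that is not required for jasmonate synthesis through OPDA, rose by 1.58 in gvs1-1 and by 2.67 in Col. The desaturases that make alpha-linolenic acid fell: FAD3, of the endoplasmic reticulum, was at -4.87 in gvs1-1 and -5.10 in Col, FAD8, of the plastid, at -4.15 in gvs1-1 and -5.29 in Col, and FAD7, of the plastid, at -2.24 in gvs1-1 and -3.37 in Col (limma adjusted p of 3.3e-05 or less for all 3 in both genotypes).

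At DAE28, 3 of the 16 genes were higher and 5 lower in gvs1-1, beside 17.9% and 15.1% of all genes. FAD8 (1.21 ± 0.27), FAD7 (1.102 ± 0.24) and AOC4 (0.60 ± 0.14), another cyclase gene, were higher, and MFP2 (-0.93 ± 0.12), KAT2 (-0.73 ± 0.14) and ACX1 (-0.62 ± 0.14) were lower, each with a limma adjusted p of 0.0085 or less. In the interaction 4 of the 16 passed, beside 18.7% of all genes: FAD7 at 1.14 and KAT2, MFP2 and ACX1 at -1.05, -0.74 and -0.68. FAD7 did not pass in 9 of the 12 fits without 1 array, and ACX1 in 6. With slide as a block 1 of the 16 passed at DAE28 and 0 in the interaction, beside 9.21% and 5.45% of all genes. By limma, 0 of the 16 passed at DAE14, and the unadjusted p was under 0.05 for 4 of them, beside 16.7% of all genes.

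Of 10 measured genes that break down or modify jasmonates, 6 rose and 1 fell with age in gvs1-1, and 9 rose and 1 fell in Col, beside the 61.4% and 72.0% of all genes that changed. The medians were 0.73 and 2.93. JOX3, a hydroxylase of jasmonic acid, rose by 2.48 ± 0.86 in gvs1-1 (limma adjusted p = 0.028) and by 7.86 ± 0.86 in Col (adjusted p = 1.6e-05), and was above background on 2 of the 3 Col DAE14 arrays. The rise in gvs1-1 did not pass in 5 of the 12 fits without 1 array. The interaction of JOX3 passed at -5.38 ± 1.21 (adjusted p = 0.016). ST2A, a sulfotransferase for hydroxylated jasmonate, rose by 2.93 ± 0.42 in gvs1-1 (adjusted p = 0.00021). In Col its signal was not well above background on any of the DAE14 arrays. Set against the lowest signal well above background on those arrays, ST2A rose at least 19.95-fold. The bound was not tested, and the fitted log2 difference was 4.88 (limma adjusted p = 3.2e-06). IAR3, an amidohydrolase that releases jasmonic acid from its conjugate, was lower in gvs1-1 at DAE28 (-0.50 ± 0.16, adjusted p = 0.037), which did not pass in 6 of the 12 fits without 1 array. Of the 10, 1 passed at DAE28, beside 33.1% of all genes, and 3 in the interaction, beside 18.7%. With JOX3 these 3 were IAR3 at -1.18 ± 0.23 (limma adjusted p = 0.0097) and ST2A at -1.96 ± 0.60 (adjusted p = 0.047). The ST2A interaction did not pass in 10 of the 12 fits without 1 array. With slide as a block, 3 of the 10 passed for age in gvs1-1, 0 at DAE28 and 0 in the interaction, beside 45.5%, 9.21% and 5.45% of all genes. JMT, which methylates jasmonic acid, fell, with -4.02 in gvs1-1 and -2.88 in Col. By limma, 0 of these 10 passed at DAE14, and the unadjusted p was under 0.05 for 5 of them, beside 16.7% of all genes, and the median was 0.96, or 0.72 with ST2A at its bound.

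Among 17 genes of perception, the receptor COI1, its partners and the JAZ repressors, 6 rose and 0 fell with age in gvs1-1, and 11 rose and 2 fell in Col, beside the 61.4% and 72.0% of all genes that changed. By limma, 8 of the 17 in gvs1-1 had an unadjusted p under 0.05, as did 12542 of the 19152 genes tested. MYC2, the leading transcription factor of the response, rose by 0.98 ± 0.22 in gvs1-1 (limma adjusted p = 0.0033) and by 1.09 ± 0.22 in Col (adjusted p = 0.0013). JAZ5 rose by 2.24 in gvs1-1 and by 3.23 in Col, and JAZ10, often used as a readout of jasmonate signalling, rose by 3.11 ± 0.57 in Col (adjusted p = 0.00065) and was at 0.83 ± 0.57 in gvs1-1 (adjusted p = 0.23). In the interaction 2 of the 17 passed, JAZ1 at -1.39 ± 0.40 (limma adjusted p = 0.040) and JAZ11 at -0.85 ± 0.17 (adjusted p = 0.011). JAZ10 did not pass there, so a difference in its age change was not shown. The JAZ1 interaction did not pass in 8 of the 12 fits without 1 array. At DAE28 JAZ3 was higher in gvs1-1 (0.41) and JAZ4 (-1.62) and JAZ11 (-0.74) were lower (limma adjusted p of 0.049 or less). Of these, JAZ3 did not pass in 9 and JAZ4 in 10 of the 12 fits without 1 array. Of all genes 33.1% passed at DAE28 and 18.7% in the interaction. With slide as a block 0 of the 17 passed at DAE28 and 0 in the interaction, beside 9.21% and 5.45% of all genes.

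Of 6 response genes, 0 rose and 3 fell with age in gvs1-1, and 2 rose and 1 fell in Col, beside the same shares of all genes. By limma, 3 of the 6 in gvs1-1 had an unadjusted p under 0.05, as did 12542 of the 19152 genes tested. VSP1 and VSP2, acid phosphatases stored in vegetative tissue and classic jasmonate targets, fell with age in gvs1-1 by 2.60 ± 0.64 and 2.69 ± 0.65 on the log2 scale (limma adjusted p = 0.0051 and 0.0047). In Col they were at -0.11 and -0.20 (adjusted p = 0.89 and 0.79), and their interaction did not pass (-2.50 and -2.48, adjusted p = 0.078 and 0.083). At DAE14 VSP1 averaged 1.55 ± 0.44 in gvs1-1 and -0.66 ± 0.57 in Col (SD, n = 3 each), a difference of 2.22 that did not pass (adjusted p = 0.16). PDF1.2, a defensin induced by jasmonate with ethylene, fell with age by 2.92 ± 1.13 in gvs1-1 (adjusted p = 0.045) and by 3.18 ± 1.13 in Col (adjusted p = 0.027). Without 1 array the fall did not pass in 10 of 12 fits in gvs1-1 (-1.89 without gvs1-1 DAE28 replicate 1) and in 4 of 12 in Col. In Col the thionin gene THI2.1, not well above background on any DAE14 array, rose at least 1.69-fold. That bound was not tested, and the fitted log2 difference was 2.41 (limma adjusted p = 0.0049). TAT3, an aminotransferase, rose in Col by 1.505 ± 0.58 (adjusted p = 0.038), a call lost in 5 of 12 fits without 1 array. PDF1.2 was higher in gvs1-1 at DAE28 by 3.49 ± 1.13 (adjusted p = 0.038), on arrays with an SD of 2.42 in gvs1-1 and 0.60 in Col. That difference did not pass in 6 of the 12 fits without 1 array, and it was 2.16 without gvs1-1 DAE28 replicate 3. The slide block left 0 of the 6 passing in each of the 5 comparisons. Of all genes it left 45.5% for age in gvs1-1, 63.2% for age in Col, 9.21% at DAE28, 0.0313% at DAE14 and 5.45% in the interaction. VSP1 and VSP2 are close copies, and their probes may share signal.

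**Figure D3:**
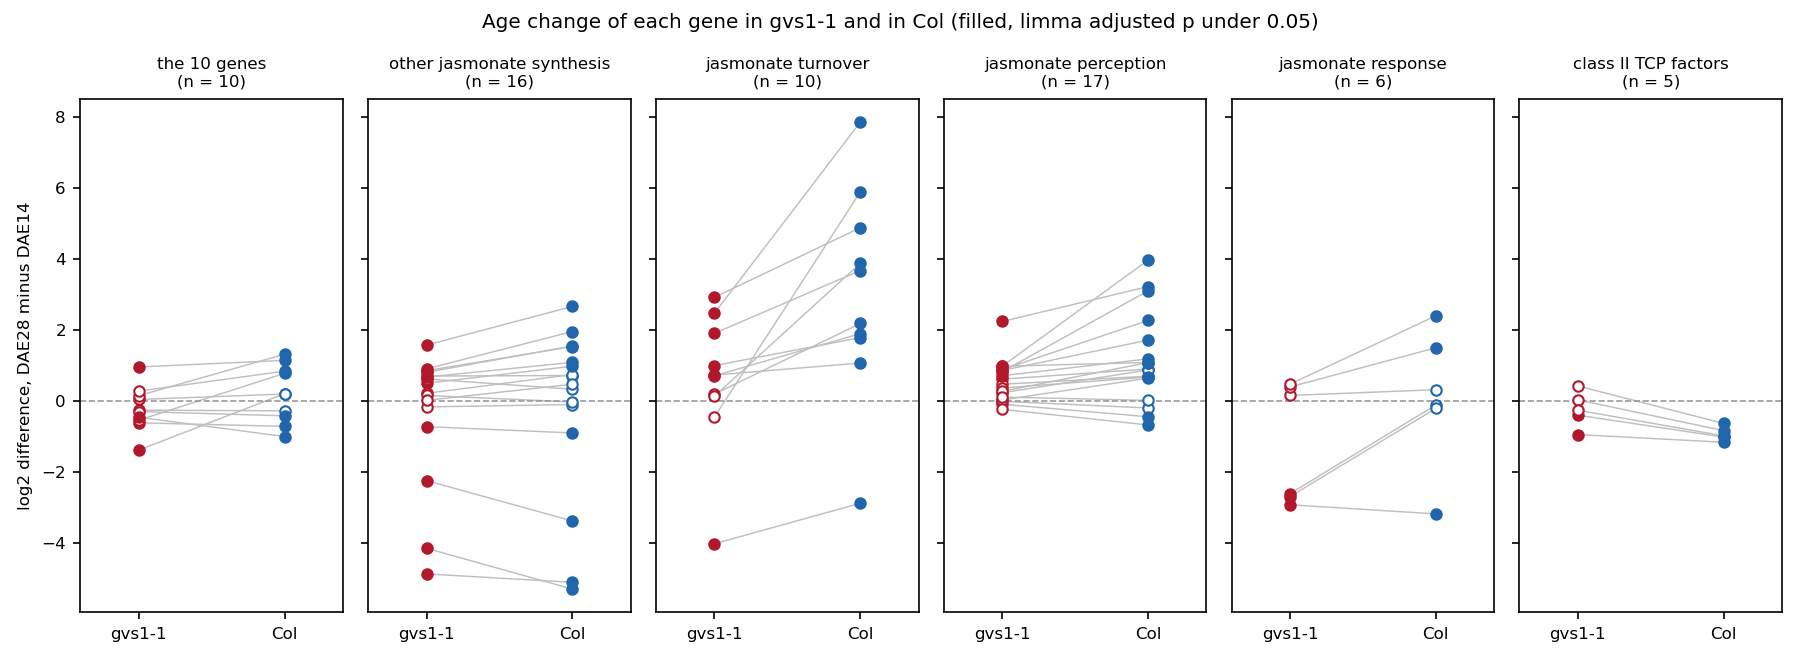
Age difference (DAE28 minus DAE14, log2, y axis) of each measured gene in gvs1-1 and Col, joined by lines, for the 10 genes and the other jasmonate lists; filled symbols have a limma adjusted p under 0.05. The turnover genes have a median of 0.73 in gvs1-1 and 2.93 in Col; ST2A and THI2.1 were not well above background in Col at DAE14, so their points for Col are fitted values and not bounds.

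Class II TCP factors, of which TCP4 and its relatives are known activators of LOX2, fell with age in 2 of 5 cases in gvs1-1 and in 5 of 5 in Col, beside the 30.0% and 36.3% of all genes that fell. TCP4 fell by 0.94 ± 0.17 in gvs1-1 (limma adjusted p = 0.00072) and by 1.16 ± 0.17 in Col (adjusted p = 0.00011). At DAE28 TCP2 (0.51), TCP3 (0.49) and TCP24 (0.45) were higher in gvs1-1, and the interaction passed for the same 3 genes, at 0.87, 0.72 and 0.62 (limma adjusted p of 0.023 or less). Of all genes 17.9% were higher at DAE28 and 9.91% in the interaction. The TCP24 interaction did not pass in 5 and that of TCP3 in 2 of the 12 fits without 1 array, and TCP3 at DAE28 in 1, without Col DAE28 replicate 2 (0.41). With slide as a block 1 of the 5 passed at DAE28 and 0 in the interaction, beside 9.21% and 5.45% of all genes. The other jasmonate lists and this one were set beside the synthesis genes as counts, and no relation to LOX2 was tested.

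Some genes outside the list had a pattern over the 12 arrays much like that of a member, among 7477 genes with a symbol that were well above background throughout. With LOX2 the highest Pearson correlations were those of TBL37 (0.970), DJ1F (0.967) and AOC4 (0.966). With LOX3 they were CHX20 (0.871), MYB102 (0.865) and PAO3 (0.863), and with AOS they were SERK2 (0.945), EMB93 (0.939) and FIM1 (0.938). With OPR3 they were TIFY7, which is JAZ9 (0.930), MYC2 (0.897) and MEB1 (0.895). The arrays fall into 4 groups and share their scaling, so these values are descriptions.

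Markers of leaf cell types moved with age beside the 10 genes. Among all genes 30.0% fell with age in gvs1-1 and 36.3% in Col, while 31.4% and 35.7% rose. The summed scaled signal of 6 mesophyll and photosynthesis markers was 607 to 784 in gvs1-1 at DAE28, 1120 to 1289 in gvs1-1 at DAE14, 466 to 484 in Col at DAE28 and 1774 to 2076 in Col at DAE14, and all 6 fell with age in both genotypes. For 5 epidermis markers the sums were 6.35 to 7.18, 15.1 to 17.8, 3.41 to 4.87 and 16.5 to 17.8 in the same groups, with 4 falling in gvs1-1 and 5 in Col. For 6 guard cell markers they were 2.47 in gvs1-1 at DAE28, 50.5 to 60.5 in gvs1-1 at DAE14, 3.13 to 4.48 in Col at DAE28 and 56.6 to 70.5 in Col at DAE14. Of the guard cell markers 3 fell in gvs1-1, while 1 rose and 2 fell in Col. Their median age difference was only -0.40 in gvs1-1 and -0.17 in Col, while the myrosinase gene TGG1 was at -5.88 in gvs1-1 and -6.01 in Col. The guard cell sums thus fell far more than the median marker. Each leaf marker list thus had signal in every group, and the 3 measured flower markers summed to between 0.05 and 0.16. The part of these markers in the age and genotype differences of the 10 genes was not tested.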

How the data were processed

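The deposited array files are Agilent Feature Extraction output (version 11.5 per the submitters' processing notes and 11.5.1.1 per the file headers), and their intensity values are linear. The processed signal is, per the file headers, the background-corrected intensity of a spot. Total RNA was labelled with Cy3 with a one-colour kit, per the labels' protocols. A deposited table holds the authors' log2 values for 21266 loci. Their correlation with the log2 median signal was 0.995 to 0.998 across 13416 genes with 1 probe, a correlation across genes, and how they were scaled between arrays stays unknown. They were used as an alternative.

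Of 43603 probes, 34348 were matched by RefSeq accession to 25410 loci of the TAIR10.1 table. The files name TAIR10, so no coordinates are given. Control spots and 166 probes marked as outliers were left out. Probes well above background on all 3 arrays of any 1 group were kept (26801 probes), and the brightest kept probe stood for its gene. Values are log2 processed signal minus the 75th percentile of the array. Tests used limma 3.58.1 under R 4.3.3 (lmFit and eBayes, 4 group means over 12 arrays, two-sided), with Benjamini-Hochberg adjustment over 19152 genes. The number of arrays limits the precision. Labels call the samples biological replicates. The p-values weigh a difference against the spread between arrays within groups. In Col at DAE28 and gvs1-1 at DAE14 that spread also holds differences between slides and scan days. Where no array of a group measured a gene well above background, a bound is given. It divides the mean of the bright group by the mean floor of the dim group, where the floor of an array is its lowest signal well above background, or the gene's own signal if that is higher.

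All 10 members are given in each comparison. Of the other jasmonate and TCP lists the rule takes the counts and up to 3 genes per direction among those that passed. Not all of these are named here, and further genes named from these lists were chosen after their values were seen. Likeness took the 3 highest Pearson correlations for LOX2, LOX3, AOS and OPR3. The members, the other lists and the tests were chosen with earlier results of these data known. Alternatives were normexp, quantile normalization, median centring, the authors' table, the filter on dim probes, the mean of probes, slide and scan day, a replicate block, only the groups compared, and each array left out. Normexp used the median signals. Promoter words were planned and not counted.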

Additional observations from a re-analysis of the deposited data

Results flagged for a closer look

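LOX1 and LOX3 were flagged because their age change differed between the genotypes by a test of that difference. Of all genes 18.7% passed that test. Neither gene passed with slide as a block or within scan day 1, and LOX3 did not pass in 10 of the 12 fits without 1 array. For LOX1 the age difference in gvs1-1 minus that in Col was -1.59 ± 0.40 (SE, limma adjusted p = 0.023), with the 3 gvs1-1 DAE28 arrays below the 9 others. For LOX3 it was -1.32 ± 0.39 (limma adjusted p = 0.041), and the 4 probes of the gene gave -1.32, -0.89, 0.19 and 0.68 from the brightest to the dimmest.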

How the results depend on the processing

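Of the 10 genes, AOC1 kept its direction and its call for age in both genotypes in all settings run, as did LOX4, LOX6 and OPR3 for age in Col. The count of the 10 genes that passed for age in Col was 7, and 5 to 7 in the alternatives, in which 52.6% to 72.7% of all genes passed. Such counts take either direction, and under quantile normalization LOX2 passed in Col as a rise (0.65). For age in gvs1-1 it was 4, against 1 within slide 3, where DAE14 has 1 array. At DAE28 it was 2, against 1 with normexp on median signals, 1 with quantile normalization, 0 with slide as a block and 0 within scan day 1. For the interaction it was 2, against 1 with normexp, the authors' table, no filter on dim probes and the mean of kept probes, and 0 with slide or scan day as a block and within scan day 1. At DAE14 it was 0 in all settings. Leaving out 1 array gave counts of 3 to 6 for age in gvs1-1, 5 to 7 for age in Col, 2 to 4 at DAE28, 0 at DAE14 and 0 to 2 for the interaction. Over all genes the shares in these fits were 54.3% to 64%, 66.4% to 72.2%, 25.1% to 33.8%, 0.0261% to 1.45% and 10.1% to 25.7%, in the same order. Of 65 calls of other named genes, 36 were lost with slide as a block, 31 within scan day 1, 21 with scan day as a block and 17 with normexp, and 0 reversed in any setting. The slide block left 9.21% of all genes passing at DAE28 and 5.45% in the interaction, against 33.1% and 18.7% without it. The cause of these changes was not tested.

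Under quantile normalization the age differences of LOX2 were 0.15 in gvs1-1 and 0.65 in Col, and those of AOS were 0.29 in gvs1-1 and 0.18 in Col. JAR1 at DAE14 was -0.018 and the LOX2 interaction -0.50. Of these, the LOX2 rise in Col passed (limma adjusted p = 0.0010). In the authors' table AOS was at 0.26 in gvs1-1 and 0.19 in Col for age, and JAR1 at -0.20 at DAE14 and 0.13 for the interaction. Median centring gave LOX1 0.054 at DAE14 and interactions of -0.045 for LOX2, -0.025 for AOS and -0.13 for AOC2. With the mean of probes JAR1 was at -0.19 for age in Col, 0.0074 at DAE28, -0.50 at DAE14 and 0.51 for the interaction. With scan day as a block age in Col was -0.062 for LOX1 and -0.032 for JAR1, JAR1 was at 0.086 at DAE28 and -0.23 at DAE14, and interactions were 0.28 for AOC1 and 0.31 for JAR1. With slide as a block age in Col was -0.25 for LOX1 and -0.24 for JAR1, LOX4 was at 0.60 at DAE28, LOX3 at -0.15 and JAR1 at -0.64 at DAE14, and the same interactions were 0.28 and 0.31. Within scan day 1 age in Col was again -0.25 for LOX1 and -0.24 for JAR1, as within slide 1, OPR3 was at -0.027 and JAR1 at 0.29 at DAE28, JAR1 at -0.024 at DAE14, and the interactions were 0.28 and 0.31. Leaving out 1 array turned the sign of 9 differences that had not passed. These were LOX4 (-0.089 to 0.55) and AOC2 (-0.42 to 0.026) for age in gvs1-1, LOX1 for age in Col (-0.12 to 0.44), LOX4 at DAE28 (-0.19 to 0.16), LOX1 (-0.087 to 0.032) and JAR1 (-0.037 to 0.033) at DAE14, and the interactions of AOS (-0.021 to 0.27), AOC1 (-0.37 to 0.049) and AOC2 (-0.15 to 0.30).

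The median of all genes for age in Col was 0.01 relative to the 75th percentile, 0.12 after quantile normalization and 0.18 after median centring. The labels do not say that replicate numbers pair the samples. Same-numbered deviations from group means correlated at -0.27 to 0.51, over 0.1 in 4 of 18 pairs, and best with their own number in 13 of 36 checks. The highest values, 0.51 and 0.38, were those of replicates 1 and 2 of gvs1-1 and Col at DAE14. With 3 arrays per group such deviations are not independent, so these checks cannot settle whether samples were paired. With a replicate block, the counts of the 10 genes that passed were 4 for age in gvs1-1, 6 for age in Col, 3 at DAE28, 0 at DAE14 and 2 for the interaction. Of all genes 60%, 70.9%, 30.7%, 0.0731% and 16% passed with that block, in the same order.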
